A study of Mus musculus with 21 samples.

Results

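Chromosome 6 was followed along its length in 13 mouse liver tumours, by the transcript signal of the array features that lie on it. A feature is a DNA probe of 60 bases printed on the array, and its coordinates are those of mouse build mm9. Of 2139 features placed on chromosome 6, 1622 were well above background on 4 or more of the 21 arrays and were taken as members. They make up 5.34% of the 30397 features that passed the same rule on the whole array and stand for 1285 genes, 970 of them with a symbol in RefSeq. For each tumour the log2 signal of a feature, relative to the 75th percentile of its array, was set against the mean of the 8 livers. Medians of these differences were taken in 10 Mb windows and centred on the tumour's median over all autosomes. The chromosome and its windows were chosen by these tumour values, so every tumour value below, the counts of calls in tumour comparisons included, is a description and supports nothing further. Among the members, 849 features were above background on all 21 arrays, 65 on exactly 4 arrays, just inside the rule, and 45 passed through arrays of 1 group alone. Just outside it lay 74 features above background on exactly 3 arrays, and 193 were above background on none. At least 1 array showed 1591 members above background among the DEN tumours, 1571 among the KO tumours, 1150 among the KO livers and 1359 among the WT livers. These groups held 7, 6, 4 and 4 arrays, and the tumours could meet the rule alone, so these counts do not compare livers with tumours.

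All mice were of C57BL/6J background. Mice with intact Trp53, the gene of the p53 tumour suppressor, received DEN (N-nitrosodiethylamine, a carcinogen that acts on liver) on day 15 at 10 µg/g of body weight, and 5 of them gave the 7 DEN tumours, which the labels call hepatocellular carcinoma. The 6 KO tumours, labelled HCC/CCC for mixed hepatocellular and cholangiocellular carcinoma, came from 5 untreated Trp53 knockout mice. The 4 KO livers and 4 WT livers came from untreated knockout and wild-type mice. KO tumours 5 and 6 shared a mouse, as did DEN tumours 4 and 5 and DEN tumours 6 and 7, and means ± SD below are over mice. The knockout and the carcinogen differ together between the tumour groups, so their parts cannot be told apart. The sources used here give neither sex nor age, nor the exons and cells in which Trp53 was deleted. Trp53 read -3.85 to -3.31 (log2 relative to the 75th percentile) in WT livers and between -6.47 and -4.91 in KO livers. It read -3.10 to -2.19 in DEN tumours and -5.35 to -3.77 in KO tumours. KO livers lay below all WT livers and KO tumours below all DEN tumours, but KO tumours overlapped with WT livers. Trp53 was still above background on 5 of 6 KO tumour arrays and 1 of 4 KO liver arrays.

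Mouse chromosome 6 carries several families of neighbouring genes that immune cells and liver cells use. The immunoglobulin kappa locus holds the variable (V) segments and the constant gene of the main antibody light chain of mice. In each B cell 1 V segment is joined to a J segment and read together with the constant gene, and plasma cells, the antibody-secreting descendants of B cells, make this transcript in very large amounts. The T cell receptor beta locus, the natural killer receptor complex and the Gimap GTPases of lymphocytes lie on the same chromosome. So do the Slco1 transporters, through which hepatocytes take up bile salts and drugs, the secreted Reg lectins, the homeobox A genes, and the growth genes Met and Braf.

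The kappa features carry the main regional difference described below, and the probes of those that stood out in single tumours show how closely related the V segments are. The capitals mark the letters TATTACTG, which overlap the conserved cysteine codon near the end of many V segments. The first probe is that of the constant gene (chr6:70676692-70676751, plus strand), which is shared by all kappa transcripts. The next 4 stood out in KO tumour 1 (Igkv19-93, chr6:68686311-68686370, minus strand), in KO tumours 1, 5 and 6 (Igkv14-126, chr6:67846563-67846622, plus strand), in KO tumour 3 (Igkv8-30, chr6:70067269-70067328, minus strand) and in KO tumour 4 (Igkv1-135, chr6:67560270-67560329, plus strand). Igkv1-133 (chr6:67675577-67675636, plus strand) also stood out in KO tumour 4. Igkv4-78 (chr6:69009686-69009743, minus strand) and Igkv4-73 (chr6:69147579-69147636, minus strand), high in WT liver 4, show how much sequence some probes share.
Igkc: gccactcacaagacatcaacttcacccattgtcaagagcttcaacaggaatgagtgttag
Igkv19-93: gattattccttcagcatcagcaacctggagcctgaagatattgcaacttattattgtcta
Igkv14-126: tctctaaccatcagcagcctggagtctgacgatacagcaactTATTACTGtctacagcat
Igkv8-30: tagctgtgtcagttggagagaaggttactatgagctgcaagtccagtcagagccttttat
Igkv1-135: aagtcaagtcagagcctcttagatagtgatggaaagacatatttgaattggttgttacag
Igkv1-133: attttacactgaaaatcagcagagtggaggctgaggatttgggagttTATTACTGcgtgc
Igkv4-78: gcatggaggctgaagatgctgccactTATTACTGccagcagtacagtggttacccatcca
Igkv4-73: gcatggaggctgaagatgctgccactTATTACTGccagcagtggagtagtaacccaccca

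On the given strand TATTACTG occurred in 20 of the 58 kappa V features (34.5%) and in 79 of all 30397 kept features (0.260%, or 0.365% when both strands were searched, where 1 more kappa V feature held it). It overlaps no other motif searched. Of the 55 kappa names, 17 shared a run of at least 25 bases with another name, and Igkv4-78 and Igkv4-73 shared 42 bases. Signal on such probes may come from either segment.

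Brightness followed the groups in part. The 75th percentile of the array intensity lay between 951 and 4258 for KO tumours, where KO tumours 4 to 6, on 1 slide, were brightest, and between 476 and 884 for all other arrays. No slide held more than 1 group. WT liver 4 stood apart from the other WT livers in lymphocyte and cell cycle genes. Its score for B and plasma cell markers (5 of 6 listed genes measured) was 3.34 above the mean of the livers, against -0.16 to 0.25 in WT livers 1 to 3, and its score for cycling cells was 2.32 against -0.45 to -0.10. Means over the kappa features and over the window that holds most of them, and kappa calls, are given with and without this liver. So is constant region 1 of the T cell receptor beta chain. Tumour values of single kappa features, other antibody genes, B cell genes, marker scores and other T cell genes are given only against the mean that includes it. They are therefore not checked for this liver. Each liver is set against the mean of the other 7 livers, unless a test between livers is given, where all 8 form the mean. Defining hepatocyte markers (8 of 8 measured, all above background on all 21 arrays) had scores of -3.50 ± 1.26 (SD, n = 5 mice) in KO tumours and -0.95 ± 0.35 (n = 5) in DEN tumours. All 8 were below the livers in every KO tumour, whereas the DEN score leaned on Cyp2e1 (-8.69 to -0.27), and Apoa1 was above the mean of the livers in 6 of 7 DEN tumours. Biliary markers (5 of 5 measured) were at 5.45 ± 1.32 and 1.11 ± 1.02, and their members disagreed. Sox9 (1.88 to 3.08) and Spp1 (1.32 to 4.01) were above the mean of the livers in every DEN tumour. Krt19 (-1.59 to 1.82), Krt7 (-2.02 to 1.61) and Epcam (-3.28 to 1.77) lay on both sides of it. KO tumour 4 had Krt19 at -0.29 and Krt7 at 0.41, far below all other KO tumours. In bulk RNA, fewer cells of a type and less RNA per cell cannot be told apart. With 4 to 7 arrays a group, their number limits the precision.

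As a whole, chromosome 6 stayed near the level of the other autosomes in every tumour. The median over its 1622 features was 0.13, 0.10, 0.09, 0.03, 0.03, -0.03 and -0.04 in the DEN tumours, ordered by size, and 0.17, 0.17, 0.14, 0.08, 0.07 and -0.06 in the KO tumours. The means were 0.048 ± 0.060 (n = 5 mice) and 0.079 ± 0.089 (n = 5). Livers lay between -0.05 and 0.03, with 8 of the 13 tumours above that range and KO tumour 2 below it. Over the 849 features above background on all arrays, the means were -0.002 ± 0.015 in DEN and 0.027 ± 0.023 in KO tumours. In every tumour at least 1 other autosome lay further from 0. In DEN tumours 2, 3 and 6 chromosome 6 held rank 2 in size among the autosomes, and in DEN tumour 2 it had the highest median. KO tumours held the larger shifts of other autosomes. Chromosome 15 reached 0.49 in KO tumour 1, and chromosome 12 was at -0.40 in KO tumour 2. Expression medians do not measure DNA copies, and copy number was not analysed here.

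Single windows departed much further than the whole. Among 195 values (15 windows in 13 tumours), 17 were past 0.5 in size (8.72%), where 158 of the 3081 values over 237 autosomal windows with enough features were (5.13%). Of the 17, 10 lay in the window from 60 to 70 Mb, 4 in that from 70 to 80 Mb and 3 elsewhere. Past 1 in size there were 18 values on the autosomes, and 5 of them lay in the window from 60 to 70 Mb. This window held the highest and the second highest of all autosomal values, 3.90 in KO tumour 5 and 2.90 in KO tumour 6, and the lowest, -1.85 in KO tumour 2. The fifth largest in size, 1.71 in KO tumour 5, was the end of chromosome 12 (110 to 120 Mb), where the heavy chain genes of antibodies lie.

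**Figure D1:**
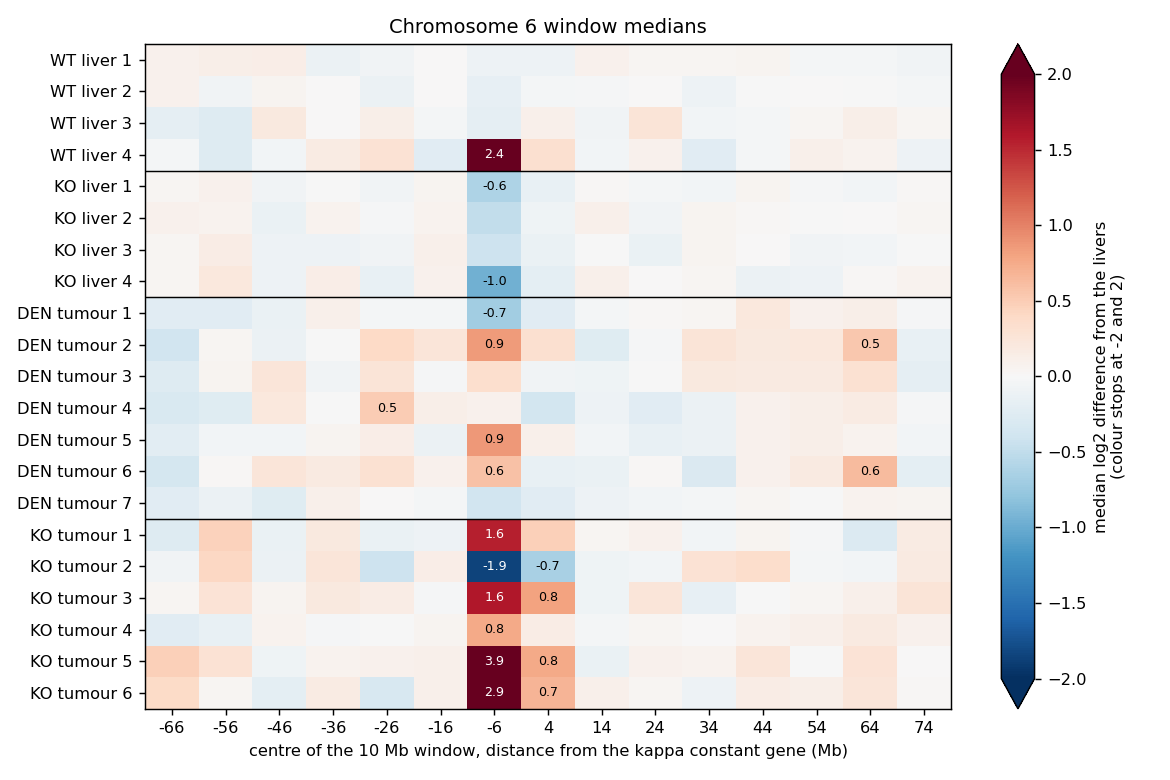
Median log2 difference from the livers in each 10 Mb window of chromosome 6 (columns, by the distance of the window's centre from the kappa constant gene in Mb) for each array (rows, by group); values past 0.5 in size are printed and the colour stops at -2 and 2. The column just before the constant gene runs from -1.85 in KO tumour 2 to 3.90 in KO tumour 5, and WT liver 4 stands at 2.41 there, while the other columns stay pale.

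In the window from 60 to 70 Mb (96 features) the DEN tumours 1 to 7 read -0.70, 0.86, 0.33, 0.08, 0.87, 0.58 and -0.38. The KO tumours 1 to 6 read 1.55, -1.85, 1.60, 0.75, 3.90 and 2.90. The KO livers read -0.61, -0.49, -0.41 and -0.95, and the WT livers -0.11, -0.17, -0.17 and 2.41. Both tumour groups thus overlapped with the livers, and only KO tumours 5 and 6, from 1 mouse, lay above WT liver 4. With WT liver 4 left out of the mean of the livers, the mean over mice went from 1.09 ± 1.91 to 1.42 ± 1.85 in KO tumours and from 0.21 ± 0.58 to 0.61 ± 0.54 in DEN tumours. The window from 70 to 80 Mb (104 features) moved less and in another order, from -0.65 in KO tumour 2 to 0.80 in KO tumour 3, with 0.76 and 0.68 in KO tumours 5 and 6. The DEN tumours lay there between -0.37 in DEN tumour 4 and 0.32 in DEN tumour 2, and DEN tumour 6, at 0.58 in the window before, was at -0.16. Features named or described as antigen, natural killer, olfactory, vomeronasal or taste receptors were also left out. The 59 remaining features of the first window stood at 0.63 ± 1.15 in KO tumours and 0.30 ± 0.34 in DEN tumours. They include unlabelled features inside the kappa span, which followed the kappa features as given below, so antibody signal is not removed by this step. Over the 21 features of the first window that were above background on all arrays, the tumours ranged from -0.06 to 0.59, with 11 of 13 above all livers.

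The rest of the chromosome moved less at this window size. Over the other 13 windows the tumours lay between -0.41 and 0.63 and the livers between -0.26 and 0.29. The 3 values past 0.5 were those of DEN tumour 4 from 40 to 50 Mb (0.51) and of DEN tumours 2 and 6 from 130 to 140 Mb (0.54 and 0.63). The window from 110 to 120 Mb was small but even in direction, with 11 of 13 tumours above all livers, reaching 0.35, against -0.12 to 0.05 in livers. Over features above background on all arrays 5 of 13 were, at -0.017 to 0.20. The window from 80 to 90 Mb had 8 of 13 tumours below all livers, at -0.24 to 0.10 against -0.07 to 0.10, and 4 of 13 over features above background on all arrays. In the first 10 Mb DEN tumours were at -0.38 to -0.22 and KO tumours at -0.26 to 0.48, so the tumour groups overlapped. Only KO tumours 5 and 6 (0.48 and 0.39), from 1 mouse, were above the livers. Over features above background on all arrays the same 10 Mb were at -0.35 ± 0.29 in KO and -0.13 ± 0.07 in DEN tumours, beside -0.017 ± 0.28 and -0.28 ± 0.06 over all kept features. No tumour was above the livers by the features on all arrays. By the same features, KO tumours stood at 0.38 ± 0.14 from 90 to 100 Mb and at -0.25 ± 0.08 from 120 to 130 Mb, where DEN tumours were near 0. Windows of 5 Mb showed shifts that the wider windows averaged out. From 20 to 25 Mb (33 features) the tumours were at -1.07 to -0.28, 12 of 13 below all livers and 8 past 0.5 in size, and from 25 to 30 Mb (41 features) at -0.05 to 0.69, 8 of 13 above all livers. From 75 to 80 Mb (13 features), where the Reg lectins lie, KO tumours were at 1.05 to 2.69 and DEN tumours at -0.22 to 0.53.

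Kappa light chain features made up a large share of the window from 60 to 70 Mb. Features described as immunoglobulin kappa numbered 66, from position 67505984 to position 70676751, and 59 of them were kept, 58 for V segments and 1 for the constant gene. Of the kept ones, 36 lay in the window from 60 to 70 Mb and 23 in the next. Only 4 were above background on all 21 arrays. In KO tumours 5 and 6, 63 and 58 of the 66 were above background, in KO tumour 2, 22, in DEN tumours 30 to 52 and in KO livers 4 to 16. WT liver 4 had 59 above background and the other WT livers 25 to 31. The 32 features of the window outside the kappa span had medians of 0.43 to 0.79 in KO tumours and -0.15 to 0.41 in DEN tumours, against -0.19 to 0.04 in livers. The 33 other kept features inside the span, 22 of them predicted genes without a name, followed the kappa features, at 1.64, -2.18, 1.81, 0.61, 5.31 and 3.67 in KO tumours 1 to 6 and at 3.34 in WT liver 4.

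The median over the 59 kappa features was 1.69, -2.24, 2.41, 1.18, 5.87 and 4.73 in KO tumours 1 to 6. It was -1.11, 1.39, 0.18, -0.37, 1.93, 0.35 and -0.86 in DEN tumours 1 to 7. KO livers were at -1.08, -0.66, -1.09 and -1.20 and WT livers at -0.48, -0.05, -0.20 and 5.10. WT liver 4 is set here against the other 7 livers, while the mean for the tumours includes it. Against those 7 livers KO tumours 5 and 6 were at 6.47 and 5.28, above the 5.10 of WT liver 4. KO tumour 2 was below every liver, on an array with 22 of the 66 kappa features above background. Over the 4 kappa features above background on all arrays, KO tumour 2 was at -0.99, above KO liver 1 (-1.23). The means over mice were 1.67 ± 2.70 in KO tumours and 0.20 ± 0.96 in DEN tumours, and 2.22 ± 2.78 and 0.84 ± 0.91 with WT liver 4 left out of the mean of the livers. The mean of the KO tumours was 0.76 without mouse 5 and 2.65 without mouse 2. In KO tumours 5 and 6 all 59 features were above the mean of the livers, in KO tumour 2 only 4 were. The constant gene, a probe that does not depend on the V segment in use, differed by 4.07, -0.72, 4.54, 3.93, 5.25 and 5.07 from the livers in KO tumours 1 to 6 and by -1.47 to 3.37 in DEN tumours, the highest of them DEN tumour 5. KO tumours 1, 3 and 4 were thus high in the constant gene, at 3.93 to 4.54, where the median of their V segments was 1.18 to 2.41.

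**Figure D2:**
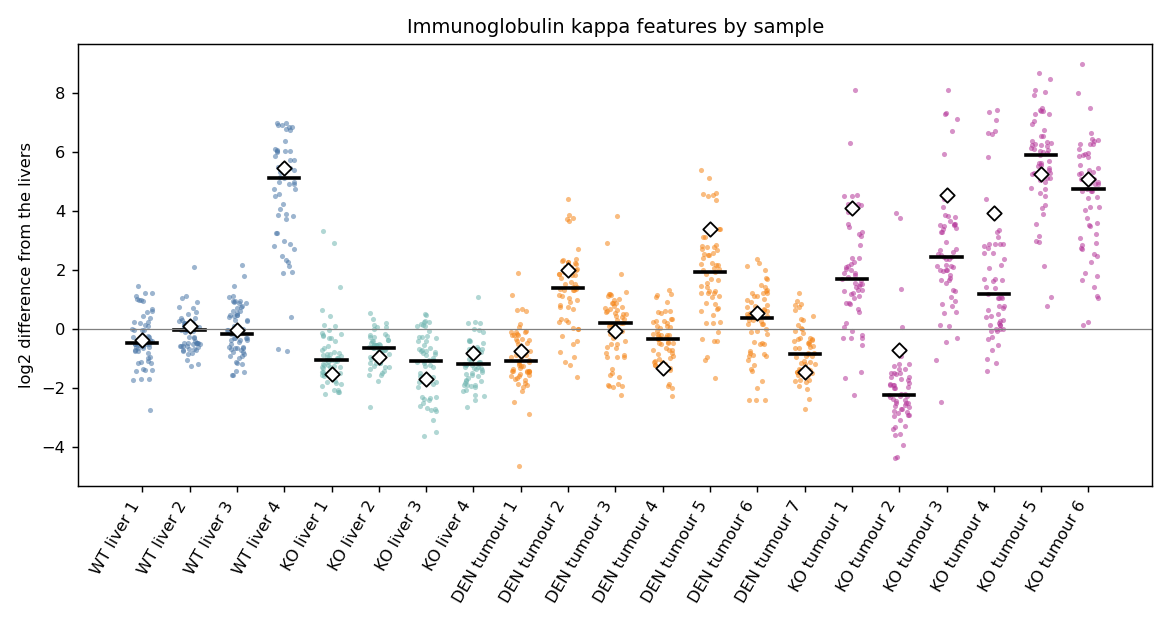
Log2 difference from the livers of each kept immunoglobulin kappa feature (points), their median (bar) and the constant gene (diamond) on each array, by group. KO tumours 5 and 6 have medians of 5.87 and 4.73, and WT liver 4, set against the other 7 livers, has 5.10. KO tumour 2 lies lowest at -2.24, and in KO tumours 1, 3 and 4 the diamond stands well above the bar.

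The V segments that stood out differed from tumour to tumour. In KO tumour 1 Igkv19-93 led at 8.07, followed by Igkv14-126 at 6.29, while the 4 segments of group Igkv1 had a median of 0.00. In KO tumour 3 segments of groups Igkv8 and Igkv6 led, with Igkv8-30 at 8.10, Igkv6-32 at 7.30, Igkv6-17 at 7.26 and Igkv8-28 at 7.12. In KO tumour 4 it was Igkv1-135 at 7.39 and Igkv1-133 at 7.08, and the medians were 7.21 over group Igkv1 and 6.61 over group Igkv2 against 0.05 over group Igkv6. Igkv1-135 itself was at -0.55 in KO tumour 1 and -0.44 in KO tumour 3. In these 3 tumours, then, a few segments were far above the rest. In KO tumour 1 they were of different groups, and the probes of Igkv19-93 and Igkv14-126 share no run longer than 11 bases. KO tumours 5 and 6 were high across the locus, with lowest values of 0.78 and 0.11, and were led by Igkv6-29 (8.67) and Igkv14-126 (8.97). KO tumour 2 had Igkv6-13 at 3.94 and Igkv15-103 at 3.75 over a lowest value of -4.37.

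Among the DEN tumours, DEN tumour 5 was led by Igkv3-2 at 5.39 and had a median of 4.52 over the 9 features of group Igkv3, and DEN tumour 2 by Igkv8-30 at 4.40. WT liver 4 was high in 6 of the 7 groups with 3 or more features, at medians of 4.64 to 5.73, and at -0.69 in group Igkv14. Segments of a group share sequence, as the printed probes of Igkv4-78 and Igkv4-73 show, so a group that is high together is not a count of separate segments. Igkv6-17 and Igkv8-28 share a run of 40 bases, and Igkv2-116 and Igkv2-109 one of 45.

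**Figure D3:**
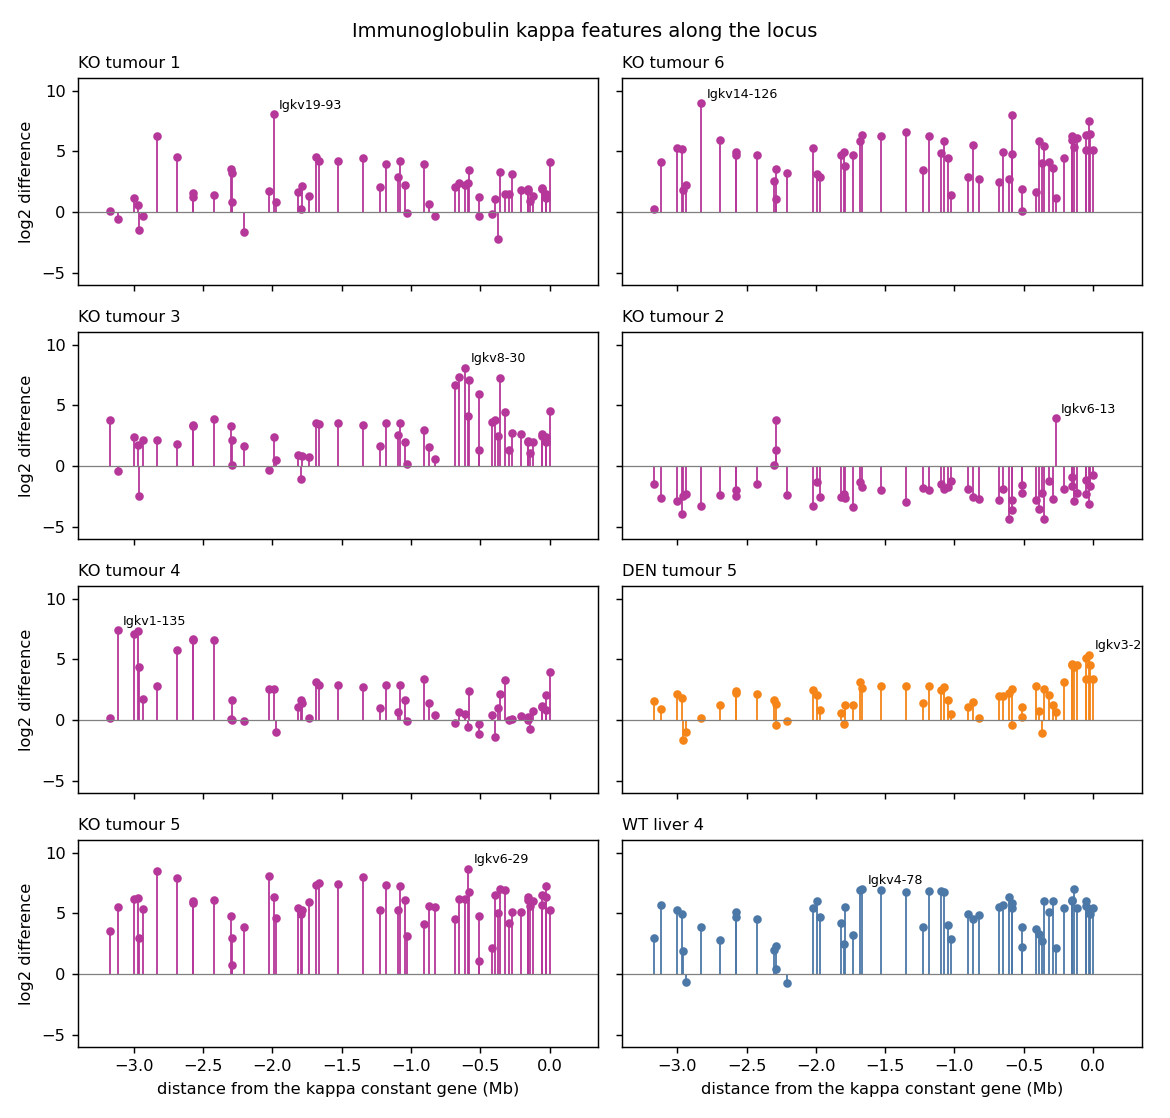
Log2 difference from the livers of each kappa feature along the locus, by its distance from the constant gene (Mb), in the 6 KO tumours, DEN tumour 5 and WT liver 4, with the highest feature named. KO tumours 1, 3 and 4 each show a few tall features at different places (Igkv19-93 at 8.07, Igkv8-30 at 8.10, Igkv1-135 at 7.39), and KO tumours 5 and 6 are high along the whole locus.

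KO tumours 5 and 6, from 1 mouse, had the most similar V patterns among the KO tumours. Over the 59 features the SD of the difference between them was 1.06, and other pairs of KO tumours gave 1.75 to 3.12. The DEN tumours did not show this, since the pairs of 1 mouse gave 1.11 (DEN tumours 6 and 7) and 1.79 (DEN tumours 4 and 5), within the 0.90 to 2.04 of the other DEN pairs. KO tumours 5 and 6 also shared a slide, together with KO tumour 4, whose SDs with them were 2.33 and 2.53. The DEN tumours of 1 mouse lay on different slides. The features are not replicates of each other, and with 3 pairs of 1 mouse no test was made.

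In the fit across all genes, 55 kappa genes were tested. In KO tumours against KO livers the fit gave 17 of them an adjusted p under 0.05 (limma), all higher, where 21.6% of all 23526 genes tested were called higher and 29.6% lower; the median over the 55 was a log2 change of 2.48. The number called was 23 without WT liver 4 and 0 with slide as a random block (7 at an unadjusted p under 0.05). In KO against DEN tumours 3 were called, all higher, where 19.9% of all genes were called higher and 37.5% lower. That count was 6 without WT liver 4, 8 with normexp and quantile scaling and 1 with slide as a random block. Nothing is read from these counts, since the window was chosen by the same tumour values. In DEN tumours against WT livers limma called none (0 also at an unadjusted p under 0.05, and 0 called without WT liver 4), where 10.6% of all genes were called higher and 11% lower. The median over the 55 was -0.72, and 0.34 without WT liver 4. The constant gene of KO tumours exceeded that of KO livers by 4.28 ± 1.12 (SE) and that of DEN tumours by 2.70 ± 1.06.

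Knockout and wild-type livers, which the choice of members did not set against each other, were tested. Features could still become members through tumours and WT liver 4, and KO livers had 4 to 16 of the 66 kappa features above background. For kappa, the comparison of KO with WT livers therefore rests in part on features not measured in KO livers. In this comparison limma called none of the 55 kappa genes (6 at an unadjusted p under 0.05, and 0 adjusted calls also with quantile scaling, with slide as a block and without WT liver 4), where 1.83% of all genes were called higher in KO livers and 6.66% lower. Their median change was -1.93, and -0.91 without WT liver 4. The constant gene differed by -2.29 ± 1.18 (limma, adjusted p = 0.263). Over windows, an exact two-sided permutation test of 4 against 4 livers can reach 0.0286 at the lowest. The window from 60 to 70 Mb was at -0.54 ± 0.21 in KO and 0.43 ± 1.12 in WT livers, a difference of -0.97 ± 0.57 (SE; exact permutation p = 0.0286). Adjusted over the 15 windows and the whole chromosome it did not pass (p = 0.114), and without WT liver 4 the difference was -0.41 against the mean of all 8 livers, and -0.30 (exact permutation p = 0.0571) with that liver left out of the mean too. Over the 21 features of the window from 60 to 70 Mb above background on all arrays, the liver groups overlapped. KO livers were there at -0.098 to -0.007 and WT livers at -0.17 to 0.008, each against the other 7 livers. The windows from 20 to 30, 50 to 60 and 90 to 100 Mb differed by -0.16, 0.12 and -0.14, each with an exact permutation p of 0.0286 and an adjusted p of 0.114. The whole chromosome differed by -0.028 ± 0.015 (exact permutation p = 0.143, adjusted p = 0.208).

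The antibody genes on other chromosomes were, like kappa, highest in KO tumours 5 and 6 and lowest among KO tumours in KO tumour 2, while the order of KO tumours 1, 3 and 4 differed from gene to gene. The median over 34 heavy chain features on chromosome 12 was 3.48, -2.04, 3.14, 3.43, 6.07 and 5.01 in KO tumours 1 to 6, -0.68 to 2.11 in DEN tumours and 4.23 in WT liver 4. Over 5 lambda light chain features on chromosome 16, the alternative to kappa, it was 1.25, 0.71, 4.13, 4.04, 6.68 and 7.0 in KO tumours and 4.36 in WT liver 4. Jchain, which links antibodies into polymers in plasma cells, was at 4.46, -0.51, 5.79, 5.19, 6.53 and 6.22 in KO tumours, at 3.19 in DEN tumour 5 and at 5.17 in WT liver 4. KO tumour 2 was thus the lowest KO tumour in these genes. Its heavy chain median was below those of the KO livers (-0.99 to -0.45), but its Jchain was above theirs (-1.44 to -0.85). Its kappa constant gene, at -0.72, was also above that of the KO livers (-1.71 to -0.82).

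Genes of B cells that have not become plasma cells followed a narrower pattern. Ms4a1, which encodes the B cell surface protein CD20, was at 0.42, -0.39, 1.93, 0.36, 4.50 and 2.89 in KO tumours 1 to 6, and Cd79b, a signalling chain of the B cell receptor, at 0.51, -0.70, 1.42, 0.85, 4.07 and 2.99. WT liver 4 was at 3.13 and 2.92. KO tumours 1 and 4 were therefore high in the constant gene and Jchain and at most 0.85 above the livers in Ms4a1 and Cd79b, whereas KO tumours 5 and 6 and WT liver 4 were high in both. The plasma cell genes added after seeing the data, Tnfrsf17, a survival receptor of plasma cells, and Pou2af1, a coactivator of antibody genes, were at 3.68 and 3.16 in KO tumour 1, at 4.16 and 2.97 in KO tumour 4 and at -2.52 and 0.49 in KO tumour 2. Xbp1 and Sdc1, also genes of plasma cells but used by hepatocytes and epithelia too, were at -0.73 to 0.25 and -0.96 to 0.11 in KO tumours. The score of the B and plasma cell markers was 1.10, -0.59, 2.47, 1.53, 4.85 and 3.68 in KO tumours, -1.33 to 1.26 in DEN tumours and -0.99 to -0.59 in KO livers. It moved with the kappa features, and its part in the regional difference was not tested.

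**Figure D4:**
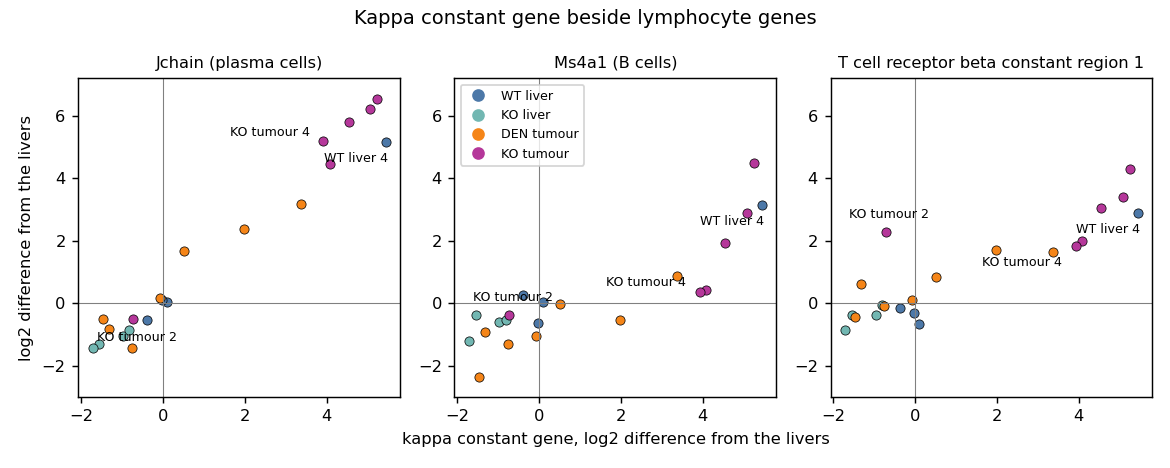
Log2 difference from the livers of Jchain, Ms4a1 and the T cell receptor beta constant region 1 (vertical axes) against that of the kappa constant gene (horizontal axis), 1 point per array, coloured by group. Jchain follows the constant gene. Ms4a1 is high in KO tumours 5 and 6 and WT liver 4 but near 0 in KO tumour 4. KO tumour 2 is the lowest KO tumour in the constant gene (-0.72) but stands at 2.26 in the T cell receptor.

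The constant regions of the T cell receptor and Cd8a did not share the low position of KO tumour 2. Constant region 1 of the T cell receptor beta chain was at 1.98, 2.26, 3.06, 1.84, 4.30 and 3.39 in KO tumours 1 to 6, at -0.44 to 1.70 in DEN tumours, at -0.86 to -0.06 in KO livers and at 2.88 in WT liver 4. In constant region 1 every KO tumour thus lay above every DEN tumour and every liver but WT liver 4. KO tumours 1 to 4 were spread around that liver. With WT liver 4 left out of the mean, KO tumours were at 2.19 to 4.67 and DEN tumours at -0.11 to 2.05. Constant region 2 gave 1.58 to 4.05 in KO tumours and -0.62 to 1.58 in DEN tumours, with KO tumour 4 just below DEN tumour 5. The 14 kept V features of the same locus had medians of -0.72 in KO tumour 2, the lowest, to 1.55 in KO tumour 5. Cd8a, a coreceptor of cytotoxic T cells that lies just beyond the kappa locus (chr6:71328911-71328970), was at 1.34, 3.30, 2.46, 2.11, 4.15 and 4.01 in KO tumours and at 2.51 in WT liver 4. It was above background on no KO liver array, and its mean was at least 2.78-fold higher in KO tumours than the lowest measurable signal there. The fold is a bound because the lower group gave no measured level, and other "at least" values below are of the same kind. Cd4, of helper T cells and macrophages, was lowest in KO tumour 2, at -3.85, -4.12, -2.93, 0.64, 0.31 and 0.39 in KO tumours 1 to 6 and -0.32 to 2.39 in DEN tumours. Over 7 T and natural killer cell markers the score was 1.03 ± 0.61 in KO and 0.87 ± 0.32 in DEN tumours, so the groups overlapped. Among these markers, Cd3e was at -0.54 to 1.62 in KO and 0.69 to 1.69 in DEN tumours. Cd3g was at 2.19 to 4.64 and -0.55 to 3.01.

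Over all 1281 chromosome 6 genes tested, 307 were called higher and 332 lower in KO tumours than in KO livers (24.0% and 25.9%, beside 21.6% and 29.6% of all genes). DEN tumours against WT livers gave 136 and 139 (10.6% and 10.9%, beside 10.6% and 11%), and KO against DEN tumours 256 and 452 (20% and 35.3%, beside 19.9% and 37.5%). The scaling to the 75th percentile shifts all genes. The median change over all genes was -0.22 in KO tumours against KO livers and -0.33 against DEN tumours, and -0.02 and -0.04 with quantile scaling. Over all genes the calls were 5078 higher and 6954 lower in KO tumours against KO livers and 4672 and 8821 in KO against DEN tumours, and with quantile scaling 5863 and 5836, and 5849 and 6755. On chromosome 6 the splits became 334 and 266 against KO livers and 315 and 346 against DEN tumours. The chromosome's own median change was -0.05 and -0.24 with the 75th percentile, beside the -0.22 and -0.33 of all genes. The members are described below by role, with calls counted as higher or lower out of those tested. Each such count is to be read beside the shares of all genes given here.

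Genes of hepatocyte secretion, transport and metabolism were mostly lower in KO tumours. Of 38 tested, 25 were lower and 6 higher in KO tumours (median -2.30), and 12 were lower and 2 higher in DEN tumours (median -0.64), each against the livers of their genotype. Slco1b2, the uptake transporter of bile salts and drugs (chr6:141634476-141634535), was at 6.90 to 7.48 over all 8 livers. It was at 1.29, 2.37, 3.54, 2.38, 2.97 and 3.44 in KO tumours and at 2.72, 0.30, -0.65, 4.67, 6.14, 4.06 and 1.64 in DEN tumours, below all livers in every tumour. The differences were -4.74 ± 0.84 and -4.89 ± 0.84 from the livers of the same genotype. Pon1, a secreted esterase of HDL particles, differed by -6.05 ± 0.85 and -4.81 ± 0.85 in the same comparisons, and Inmt, an indolethylamine methyltransferase, by -6.73 ± 1.19 and -5.29 ± 1.19. Mgll, which breaks down monoacylglycerols, differed by -4.01 ± 0.28 and -2.61 ± 0.28.

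Other members of this list separated the tumour groups. Akr1d1, which makes bile acid precursors, differed by -5.81 ± 0.76 in KO tumours against KO livers and by -3.76 ± 0.72 against DEN tumours. Gys2, the liver glycogen synthase, was at -1.39, 1.05, 0.76, 3.99, 2.27 and 2.30 in KO tumours, at 4.24 to 7.07 in DEN tumours and at 5.6 to 6.53 in livers, so that no KO tumour reached the others. Aldh1l1, of folate metabolism, differed by -3.91 ± 0.30 and -2.76 ± 0.28 in the same comparisons. Fabp1, the fatty acid binding protein of liver, lies near the kappa locus (chr6:71154906-71154965) and was at 3.58 to 6.10 in KO tumours against 8.76 to 9.25 in KO livers. DEN tumour 2, at 3.21, was lower than any KO tumour, and the other DEN tumours were at 6.40 to 8.97. These genes moved with the score of the hepatocyte markers, whose part in them was not tested.

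The Reg lectins, secreted proteins of epithelia that bind bacteria and act in repair, lie side by side and were high together in KO tumours. Of 5 tested, 4 were higher in KO tumours, both against KO livers (median 7.06) and against DEN tumours (median 6.11), and limma called none in DEN tumours against WT livers (0 at an unadjusted p under 0.05). Reg3g (chr6:78416420-78416479) was at 6.33, 6.59, 5.06, 5.0, 3.39 and 2.91 in KO tumours, at -8.03 to -6.98 in DEN tumours other than DEN tumour 2 (-4.20), and at -7.27 to -6.24 in livers, where it was above background on no array. The KO tumours stood apart from all other arrays, while DEN tumours overlapped with the livers. Its mean was at least 974-fold higher in KO tumours than the lowest measurable signal in KO livers. Reg3b (chr6:78323323-78323382) was at 7.06, 7.10, 5.85, 5.24, 2.52 and 3.06 in KO tumours, at 2.12 in DEN tumour 2 and at -8.36 to -7.60 in the other DEN tumours. Reg1 was at 1.95, 1.78, 3.68, -3.53, -2.70 and 1.37 in KO tumours, at least 40.6-fold higher than the lowest measurable signal in KO livers. The closely related Reg probes may share signal.

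Growth signalling genes were split, with 10 of 19 higher and 6 lower in KO tumours than in KO livers. Met, the receptor of hepatocyte growth factor (chr6:17503299-17503358), was at 0.30, 0.63, 2.21, 1.87, -0.21, 0.53 and 0.86 in DEN tumours, at -1.31 to -0.70 in livers and at -2.86, -3.19, -2.97, -2.10, -2.99 and -3.54 in KO tumours. The 3 ranges did not overlap. Relative to WT livers, Met was 1.98 ± 0.32 higher in DEN tumours, and 1.64 ± 0.32 and 3.81 ± 0.30 lower in KO tumours than in KO livers and DEN tumours. Tgfa, a ligand of the EGF receptor, was at -3.67 to -2.03 in DEN tumours and -3.87 to -3.17 in WT livers (1.2 ± 0.24 higher), and differed by 0.35 ± 0.24 in KO tumours. Relative to KO livers, Etv6, a transcription factor of the ETS family, was 2.09 ± 0.30 higher in KO tumours. Braf, a kinase of the MAP kinase cascade, differed by 0.12 ± 0.23, and another of its probes went the opposite way in at least 1 comparison. Ret, a receptor tyrosine kinase above background on no DEN tumour or liver array, was higher in KO than in DEN tumours by at least 10.8-fold, by the same bound.

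Cell cycle and replication genes were higher in KO tumours, 10 of 18 against KO livers and 14 of 18 against DEN tumours, with none lower in either. Mcm2, a subunit of the replicative helicase, was at -0.34 to 0.73 in KO tumours, -2.11 to -0.30 in DEN tumours and -3.57 to -1.84 in livers, the highest liver being WT liver 4. Its tumours exceeded the livers of the same genotype by 3.43 ± 0.28 (KO) and 1.58 ± 0.28 (DEN). Foxm1, a transcription factor of mitosis, was 4.05 ± 0.52 and 0.90 ± 0.52 higher, with another probe that went the opposite way in at least 1 comparison. Ncapd2, of condensin, was 2.13 ± 0.25 and Ezh2, a histone methyltransferase, 1.45 ± 0.35 above KO livers in KO tumours. Of the 5 glycolysis genes 3 were higher and 1 lower in KO tumours, among them Hk2, a hexokinase low in liver, by 2.62 ± 0.56, and Tpi1, triosephosphate isomerase, by -1.03 ± 0.22.

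Genes of vessels, matrix and surface membranes were higher in 9 of 13 and lower in 1 in KO tumours against KO livers (median 2.49), and in 4 and 0 in DEN tumours against WT livers (median 1.11). Mgp, a matrix protein that holds back calcification, was at 2.90 to 5.20 in KO tumours and at -2.74 to -1.39 in livers, and reached 1.13 in DEN tumour 2. Mfap5, of elastic microfibrils, was at least 48.9-fold higher in KO tumours than the lowest measurable signal in KO livers. Cd9, a tetraspanin, and Cav2, a caveolin, were higher in both tumour groups, by 3.29 ± 0.36 and 2.49 ± 0.36 in KO and by 2.64 ± 0.36 and 2.10 ± 0.36 in DEN tumours. Prr15, a small proline-rich protein, was at 0.48 to 3.26 in KO tumours, at -4.01 to -1.66 in DEN tumours and at -6.84 to -3.80 in livers. Markers of matrix and stellate cells on all chromosomes (6 of 6 measured) stood at 3.45 ± 0.77 in KO and 0.56 ± 1.45 in DEN tumours, and their part was not tested.

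**Figure D5:**
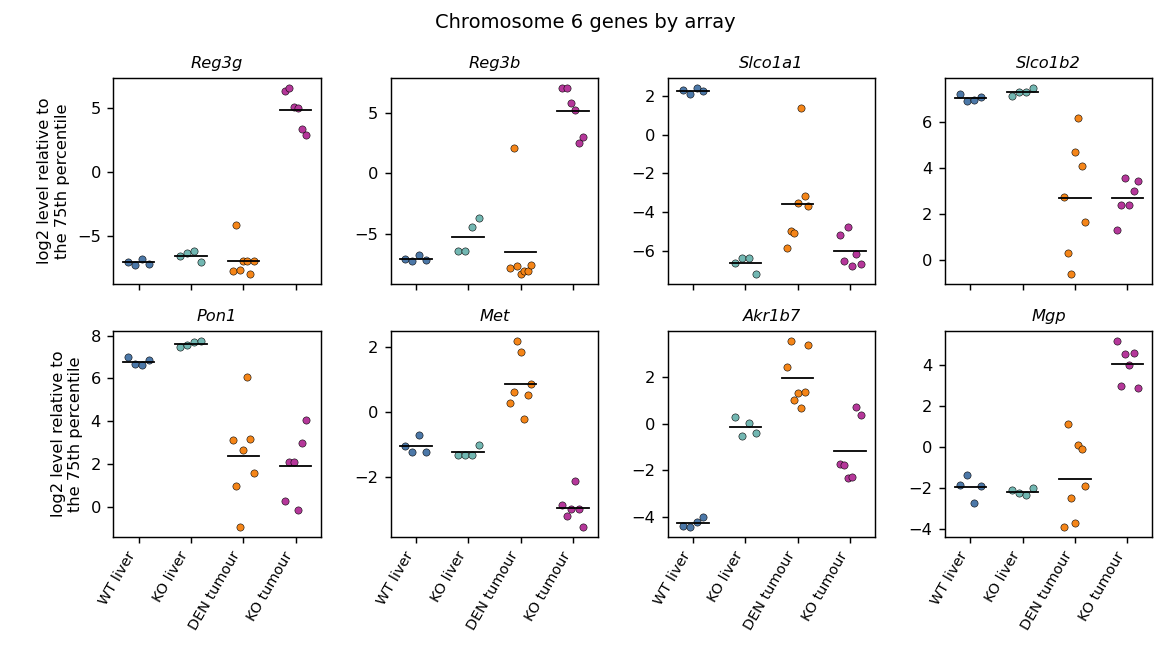
Log2 level relative to the array's 75th percentile of 8 chromosome 6 genes, 1 point per array and a bar at the mean of the arrays, by group. Reg3g and Reg3b are high in all 6 KO tumours, Met lies above the livers in DEN tumours and below them in KO tumours, and Slco1a1 is high in the 4 WT livers alone apart from DEN tumour 5.

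Myeloid lectins and receptors were higher in KO tumours in 10 of 16 and lower in 3 (median 1.59), and higher in 4 of 16 in DEN tumours. Clec4e, a receptor for fungal and damaged-cell lipids, was at least 5.51-fold higher in KO tumours and at least 2.58-fold higher in DEN tumours than the lowest measurable signal in their livers. Alox5, the enzyme that starts leukotriene synthesis, exceeded WT livers by at least 26.8-fold in DEN tumours, by the same bound. Clec4f, a receptor of Kupffer cells, the resident macrophages of liver, was at -3.33, -0.16, -3.32, -5.29, 0.77 and 5.08 in KO tumours against 2.53 to 3.12 in livers, so KO tumour 6 was above all livers and the others below them. The macrophage marker score, which includes Clec4f, was 1.67 and 3.44 in KO tumours 5 and 6 and -2.24 to 0.11 in the others. Its members went different ways. In KO tumours 1 to 4 Vsig4 was at -5.63 to -1.41 and Marco at -6.50 to -1.84, below the mean of the livers like Clec4f. Adgre1 (1.07 to 3.64), Cd68 (1.93 to 4.38) and Csf1r (0.92 to 2.98) were above that mean in every KO tumour.

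Of the 19 T and natural killer cell genes tested, 9 were higher and 2 lower in KO tumours against KO livers. Klrb1b, a natural killer receptor, exceeded the livers of the same genotype by 6.30 ± 0.88 in DEN and 3.37 ± 0.88 in KO tumours. Klrg1, a receptor of late effector lymphocytes, was at least 4.03-fold higher in KO tumours than the lowest measurable signal in KO livers. Of the 8 Gimap GTPases 4 were higher in KO tumours, with Gimap3 at 2.43 ± 0.55, and 1 in DEN tumours. Gimap3 stood at 0.04 in WT liver 4 against -2.60 to -1.73 in the other livers.

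Smaller families moved member by member. Of the 5 aldo-keto reductases tested, 3 were higher in each tumour group and 1 lower in KO tumours. Akr1b7 (chr6:34372905-34372964), an aldose reductase-like enzyme, was at 0.68 to 3.55 in DEN tumours, at -0.53 to 0.29 in KO livers, at -2.32 to 0.73 in KO tumours and at -4.44 to -3.99 in WT livers. Its neighbour Akr1b3, aldose reductase itself, was higher in both tumour groups, by 2.15 ± 0.25 and 2.30 ± 0.25, and Akr1b8 was 2.45 ± 0.38 higher in KO tumours. Of 9 imprinted genes tested, expressed from 1 parental copy, 2 were higher and 3 lower in KO tumours and 1 higher and 3 lower in DEN tumours. Over all genes 21.6% and 29.6% were called in KO and 10.6% and 11% in DEN tumours, so the KO counts are near the background. Mest was higher by 1.53 ± 0.52 and 1.79 ± 0.52, with another probe that went the opposite way in at least 1 comparison, and Casd1, near the start of the chromosome, differed by -1.03 ± 0.18 and -0.93 ± 0.18, also with an opposing probe in at least 1 comparison. Of 9 homeobox A genes 2 were higher in KO tumours, near the 21.6% of all genes, and limma called none in DEN tumours (1 at an unadjusted p under 0.05). Of 5 genes tested from a list of Wnt ligands, their coreceptor Lrp6 and Snd1, 2 were higher and 2 lower in KO tumours. The only B cell gene of a fixed list of 7 that could be tested was a second feature with the symbol Igkc, 13738 bases beyond the constant gene's feature (chr6:70690489-70690548) and taken from an unclassified cDNA. It was above background on no KO tumour array and stood at -7.53 ± 0.79 in KO and -5.85 on average in DEN tumours, unlike the constant gene's own probe.

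Between the livers, 18 of the 1281 genes were called higher and 82 lower in KO than in WT livers (limma, adjusted p under 0.05), 1.41% and 6.40% beside the 1.83% and 6.66% of all genes, a share near the background. Slide and scan day held no other group where WT livers were hybridised, so group and slide cannot be told apart. With slide as a random block limma called none of the 1281 (81 at an unadjusted p under 0.05), and without WT liver 3 it called 38, without WT liver 4 52.

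The clearest call was Slco1a1, an organic anion transporter of hepatocytes that male mice express more than females (chr6:141856493-141856552). It was at 2.31, 2.14, 2.45 and 2.30 in WT livers and at -6.64, -6.37, -6.38 and -7.23 in KO livers, where it was above background on no array. Its mean was thus at least 128-fold lower in KO livers (limma adjusted p = 5.0e-06, 0.074 with slide as a block). Its neighbour Slco1b2 differed by 0.27 ± 0.89. DEN tumour 5 kept Slco1a1 at 1.41, and all other tumours were at -6.79 to -3.16. Clec2h, a lectin of the natural killer complex, was at 1.10, 0.81, -0.12 and -0.56 in WT and -6.64, -6.17, -6.16 and -6.99 in KO livers, at least 32.2-fold lower (limma adjusted p = 0.00046). Asns, asparagine synthetase, was at 1.44, 2.04, 1.05 and -0.03 in WT and -4.27, -4.47, -3.78 and -3.64 in KO livers (-5.16 ± 0.72, limma adjusted p = 0.00050), while all tumours were at -1.10 to 4.65.

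Akr1b7 rose by 4.11 ± 0.58 from WT to KO livers (limma adjusted p = 0.00058), with no overlap between the groups. Trim24, a nuclear receptor cofactor that holds back liver tumours in mice, rose by 1.74 ± 0.26 (limma adjusted p = 0.00078), from 0.96 to 2.29 in WT to 2.94 to 3.50 in KO livers. Tmem139 rose by 3.37 ± 0.70 and Gsdme, a gasdermin that forms membrane pores, by 1.46 ± 0.36 (limma adjusted p = 0.0086 and 0.020). Snd1, a nuclease of RNA silencing complexes, fell by 1.14 ± 0.19 on the log2 scale (limma adjusted p = 0.0017), and Nat8f5, an N-acetyltransferase-like gene, by 4.09 ± 0.99 (limma adjusted p = 0.019). Of the T and natural killer cell genes 2 of 19 fell, Clec2i by 1.51 ± 0.45 on the log2 scale and Klri2 (limma adjusted p = 0.045 and 0.024), and of the myeloid genes 1 of 16, C3ar1. Klri2 was above background on 1 of 4 WT liver arrays and C3ar1 on 2 of 4, and both on no KO liver array, so that no fold can be given for Klri2 and C3ar1 was at least 1.45-fold lower. None of these 3 calls held with quantile scaling, where the changes of Klri2, Clec2i and C3ar1 were -0.35, -0.41 and -0.23. Of the hepatocyte list 3 of 38 fell, among them Slco1a1 and Asns, and none rose. Over all genes 6.66% were called lower and 1.83% higher, so these list counts are near the background. Limma called no member of the growth, cell cycle, glycolysis, Reg, Gimap, homeobox A, imprinted and vascular lists between the livers, where 3, 5, 1, 0, 1, 0, 1 and 1 members had an unadjusted p under 0.05.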

How the data were processed

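One-colour Agilent arrays were used, with Cy3-labelled total RNA of 13 tumours and 8 livers. Per the file headers, the deposited text files hold intensity values read by Agilent Feature Extraction 10.7.3.1, with the background already subtracted in the processed signal. The deposited table of log2 values was made by the authors from the same arrays. Each of its columns correlated with its own array (r of at least 0.9997), its column medians ran from -0.57 to 0.30, and it was used as an alternative. Its scale was matched to the 75th percentile and centred per probe, as a comparison with the intensities shows, and nothing states how.

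The log2 processed signal minus the 75th percentile of its array was computed for each non-control feature, without outlier spots. Features well above background on 4 or more arrays were kept. Tumours of 1 mouse were averaged, giving 18 mice, and 1 feature a gene was tested with limma 3.58.1 in R 4.3.3, over all 23526 genes with Benjamini-Hochberg adjustment and a threshold of 0.05. Nothing in the labels says whether tissue was sampled more than once, so p-values measure the spread between these mice. The test was tried on simulated data with 200 changed genes. Windows were compared between livers by exact permutation. Plots used Python 3.11.15 and matplotlib 3.10.9.

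The members, lists, kappa features and some alternatives were chosen with earlier results of these data known. Genes were named by rule: fixed genes, the 4 highest and 4 lowest changes a comparison without overlap between groups, the 3 features brightest in livers in each of the 6 windows farthest from 0, and up to 2 higher and 2 lower members of each list with the smallest adjusted p. V segments, antibody genes elsewhere and plasma cell genes were named after their values were seen. Of the 3 window features, which bear no gene name, NAP097170-001 differed most between KO tumours and KO livers, by -2.19. A few single genes are not reported here, though they remain in the counts over lists.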

Additional observations from a re-analysis of the deposited data

Results flagged for a closer look

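Of 204 groups of values checked for a sample far from the rest of its group, 17 such samples were found, where chance gives about 1 in 20. In this check each liver is set against the mean of all 8 livers, so its values are smaller than those against the other 7. WT liver 4 stood alone above the other WT livers in the window from 60 to 70 Mb (2.11), in the kappa median (4.46) and in the kappa constant gene (4.76). KO mouse 2 stood alone below the other KO mice in the kappa constant gene (-0.72). Their B and plasma cell scores, 3.34 and -0.59, moved with these values, and their part was not tested.

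DEN mouse 2 stood apart from the other DEN mice most often. It was highest in the windows from 50 to 60 Mb (0.24) and from 70 to 80 Mb (0.32), in Reg3g (level -4.20), Reg3b (2.12) and Etv6 (0.0040), and lowest in Fabp1 (3.21). DEN mouse 4 was lowest in the window from 90 to 100 Mb (-0.19), and KO liver 1 in that from 100 to 110 Mb (-0.049). Single mice were highest in Met (DEN mouse 3 at 2.21 and KO liver 4 at -1.0), Tgfa (WT liver 3 at -3.17), Foxm1 (KO liver 4 at -4.09) and Akr1b7 (KO mouse 5 at 0.55).

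For 15 genes the difference of tumour from liver was itself different between knockout mice and mice with intact Trp53 (limma interaction, adjusted p under 0.05). These contrasts are those by which the chromosome was chosen, so the values describe these tumours and test nothing, and treatment and genotype cannot be told apart in them. The excess of the KO tumour difference over the DEN tumour difference was 11.54 in Reg3g, 9.67 in Reg3b, 7.10 in Slco1a1, 5.95 in Mgp, 3.14 in Foxm1, 1.85 in Mcm2, 1.79 in Etv6, 1.53 in Ezh2, 1.16 in Mad2l1 and 0.84 in Cdkn1b. It was -7.69 in Akr1b7, -3.91 in Gys2, -3.62 in Met, -3.51 in Cd4 and -0.93 in Tpi1. The values for Slco1a1, Reg3g and Reg3b are no measured sizes. Slco1a1 was not well above background on any KO liver array, Reg3g on any liver array and all but 1 of 7 DEN tumour arrays, and Reg3b on any WT liver array, all but 1 KO liver array and all but 1 DEN tumour array.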

How the results depend on the processing

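The mean chromosome 6 median of DEN tumours went from 0.048 to -0.016 with no filter on dim features. Window values past 0.5 in size numbered 17 of 195, and 58 of 390 with 5 Mb windows, 6 of 104 with 20 Mb windows and 6 of 195 over features above background on all arrays. Over those features the liver difference (KO minus WT) turned to 0.0021 for the whole chromosome (exact permutation p = 0.771) and to 0.0032 for the window from 60 to 70 Mb (exact permutation p = 0.971). Leaving out 1 liver, the whole chromosome ranged from -0.041 to -0.018, and the window from -1.20 without WT liver 3 to -0.30 without WT liver 4.

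Calls on chromosome 6 with slide as a random block were 344 instead of 639 (KO tumours against KO livers), 27 instead of 275 (DEN tumours against WT livers) and 0 instead of 100 (livers). The block fit also took tumours of 1 mouse as separate arrays, so these counts differ from the main ones by both changes. Over features above background on all arrays they were 389 instead of 708 (KO against DEN tumours) and 31 instead of 100 (livers), with fewer genes tested. Leaving out 1 mouse, the 4 counts ranged from 561 to 684, from 202 to 314, from 656 to 746, and, for livers, from 38 without WT liver 3 to 125 without KO mouse 4.

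The kappa means, whose alternatives were chosen after seeing the data, ranged from 0.76 to 2.65 in KO tumours, without mouse 5 and mouse 2, and from -0.10 to 0.84 in DEN tumours, without DEN mouse 2 and WT liver 4. With normexp and quantile scaling they were 0.75 and -0.09, and they were 1.67 and 0.20 with the authors' deposited table, where the chromosome 6 means were 0.080 and 0.047. That scaling turned 4 gene values: A_55_P1953475 to 0.63 and A_55_P1988328 to 0.42 (KO against DEN tumours), A_55_P1988328 to 0.47 (KO tumours against KO livers) and Klrb1f to 0.036 (DEN tumours against WT livers); the cause was not tested. Of the named gene results, 362 kept direction and call with it, 28 lost the call, 9 gained it and 49 without a call moved by more than their SE. With the slide block 353 kept them and 99 lost the call. No paired analysis was possible because tumours and livers came from different mice by their labels. Signal over background limits the dim features.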
